A study of Mus musculus with 6 samples.

Results

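The contractile apparatus of the heart was followed through 36 genes that encode structural proteins of the sarcomere and the Z-disc, out of 17441 genes listed in at least 1 library of infarcted or sham-operated mouse hearts. The genes were chosen by the known place of their proteins in the sarcomere, with earlier results of these data known, and all 36 were listed in at least 1 library. They comprise 6 genes of the thick filament, 8 of the thin filament, 4 of titin and the M-band, 11 of the Z-disc, and 7 that encode desmin, filamin C, the Xin proteins and small muscle stress proteins.

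Heart tissue from below the ligature of the left anterior descending coronary artery was taken for RNA sequencing 3 days after surgery in male mice aged 12 weeks, all on a C57BL/6 background. WT Sham mice underwent the operation without the ligation, WT MI mice had the artery ligated, and Card9 KO MI mice, which are labelled as lacking the adaptor gene Card9, had the same ligation. Each of the 3 groups had 2 libraries, and no source states that they came from separate animals, so p-values measure the spread between these samples, which may be technical. Sham-operated mice of the Card9 KO genotype were not analysed here, and in Card9 KO MI against WT Sham genotype and infarction cannot be told apart.

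In a sarcomere, myosin thick filaments slide along actin thin filaments that are anchored in the Z-disc. Titin spans from the Z-disc to the M-band as an elastic scaffold, and the troponin complex with tropomyosin switches the thin filament on when calcium binds. Around the Z-disc, desmin filaments tie neighbouring myofibrils to each other, while filamin C, the Xin proteins and small heat shock proteins are known to gather at damaged or stretched sarcomeres.

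Values are FPKM, fragments scaled to the length of the gene and to the size of the library, so levels of different genes can be compared per length. The 6 libraries listed 14935 to 15852 genes each, and their depth, estimated from the steps between the lowest values, was 3016000 to 4294000 fragments. For a transcript of 1 kb, 3 fragments then come to an FPKM of 0.699 to 0.995. The FPKM of the targeted gene goes against its label: Card9 had 0.99 and 1.03 in the WT Sham libraries, 3.39 and 5.08 in the WT MI libraries, and 9.85 and 6.94 in libraries labelled Card9 KO MI. Between the infarct groups Card9 was not called (log2 fold change 0.85, SE 0.23, limma adjusted p = 0.11). FPKM does not measure the protein, and whether the gene was lost was not tested here. The group is therefore named by its label, and every direction given for it against WT MI rests on that label. Replicate 1 of WT Sham stood apart in load-responsive genes, picked after their values were seen: Acta1 was 1312 against 319 in replicate 2, Nppa 326 against 78.2 and Ankrd1 1188 against 507. Replicate 1 of Card9 KO MI had the lowest summed FPKM of 19 cardiomyocyte genes outside the 36, such as Ryr2, Atp2a2 and Ckm (13942 against 16709 in replicate 2), and the highest summed FPKM of 10 macrophage markers (2904 against 2113).

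The 36 genes together carried 13.2% and 13.1% of all FPKM in the WT Sham libraries, 10.2% and 9.97% in WT MI, and 8.31% and 9.47% in libraries labelled Card9 KO MI. The groups do not overlap on this share. In WT Sham the regulatory light chain gene Myl2 had the highest level of the 36 and was exceeded by 1 gene in the whole library, and Actc1, Tpm1 and Tnnt2 followed it. In both infarct groups Actc1 was the highest, Tpm1 and Tnnt2 came next, and Myl2 was the fourth. The atrial light chain genes had the lowest levels of the 36: Myl7 was listed only in WT Sham, at 0.55 and 0.58, and Myl4 was 0.73 and 0 in the WT Sham libraries, 0.57 and 2.06 in the WT MI libraries, and 1.08 and 3.37 in the Card9 KO MI libraries. The summed FPKM of 10 atrial markers was 375 and 140 in the WT Sham libraries, 801 and 884 in the WT MI libraries, and 1888 and 1711 in the Card9 KO MI libraries. Most of that sum was Nppa, the natriuretic peptide gene that stressed ventricles also express, at 758 and 838 in the WT MI libraries and 1841 and 1661 in the Card9 KO MI libraries. Of the 7 atrial markers tested, 3 rose and 2 fell in WT MI against WT Sham and 4 rose and 2 fell in Card9 KO MI against WT Sham (limma, Benjamini-Hochberg adjustment). Of all genes tested, 27.7% rose and 9.39% fell in WT MI, and 34.8% rose and 14.3% fell in Card9 KO MI. The atrial markers Sln and Bmp10 were at 0 in all libraries, as was the skeletal muscle myosin gene Myh1.

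Promoter sequence was read from 250 bases before to 50 bases after the start sites of RefSeq genes on GRCm38.p6, a window found for 29 of the 36 genes; Lmod3, Myom2, Tcap, Myot, Nexn, Cryab and Xirp1 had no entry. The CArG box, the binding motif of serum response factor, and the MEF2 site are known as motifs of muscle promoters. A CArG box was found in 7 of the 29 genes (24.1%), against 1.81% of all 27025 genes with a window, and a MEF2 site in 6 (20.7% against 3.70%). The M-CAT motif (CATTCC) was present in 11 (37.9% against 16.6%) and the GATA motif (AGATAA) in 8 (27.6% against 12.7%), each searched on both strands, and overlapping matches of different motifs were each counted. The windows below show 1 motif each in capitals with 25 bases on both sides, 5′ to 3′ on the strand of the gene, for genes on which the comparisons turn. Both genes that were lower and genes that were higher after infarction are among them.
Actc1, CArG box, GRCm38.p6 chr2:114052888-114052947, minus strand: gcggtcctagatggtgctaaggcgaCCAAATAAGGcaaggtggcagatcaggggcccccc
Myl3, CArG box, GRCm38.p6 chr9:110763568-110763627, plus strand: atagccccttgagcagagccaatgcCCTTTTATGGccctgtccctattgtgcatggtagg
Myom1, CArG box, GRCm38.p6 chr17:71019433-71019492, plus strand: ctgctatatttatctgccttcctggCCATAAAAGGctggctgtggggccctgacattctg
Ttn, MEF2 site, GRCm38.p6 chr2:76982679-76982738, minus strand: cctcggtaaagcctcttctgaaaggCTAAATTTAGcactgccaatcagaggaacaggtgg
Synpo2l, MEF2 site, GRCm38.p6 chr14:20668429-20668488, minus strand: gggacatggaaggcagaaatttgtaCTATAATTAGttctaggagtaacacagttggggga
Xirp2, MEF2 site, GRCm38.p6 chr2:67445903-67445962, plus strand: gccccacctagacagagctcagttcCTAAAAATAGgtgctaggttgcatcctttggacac
A match of letters is not evidence of binding, and none of these data measure it.

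After infarction in WT mice the sarcomere genes did not move as 1 block. Of the thick filament genes 3 of 5 tested fell in WT MI, of the thin filament genes 3 of 8, of titin and the M-band 4 of 4, and of the Z-disc genes 4 of 11 fell and 2 rose, whereas 6 of 7 genes of the desmin and filamin group rose. Genes reaching an FPKM of 1 in 2 or more libraries were tested, which kept 35 of the 36 (Myl7 was not kept). Of these 14 fell and 8 rose at an adjusted p below 0.05 (limma on log2(FPKM + 1), Benjamini-Hochberg adjustment over 13120 genes). These are 40.0% and 22.9% of the 35, against 9.39% of all genes tested that were lower and 27.7% that were higher. Their median log2 fold change was -0.29, beside 0.19 over all genes tested. The libraries of both groups did not overlap for 24 lower and 9 higher genes, where the background is 22.1% and 48.3%. In bulk tissue fewer cardiomyocytes and less RNA per cardiomyocyte cannot be told apart.

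**Figure D1:**
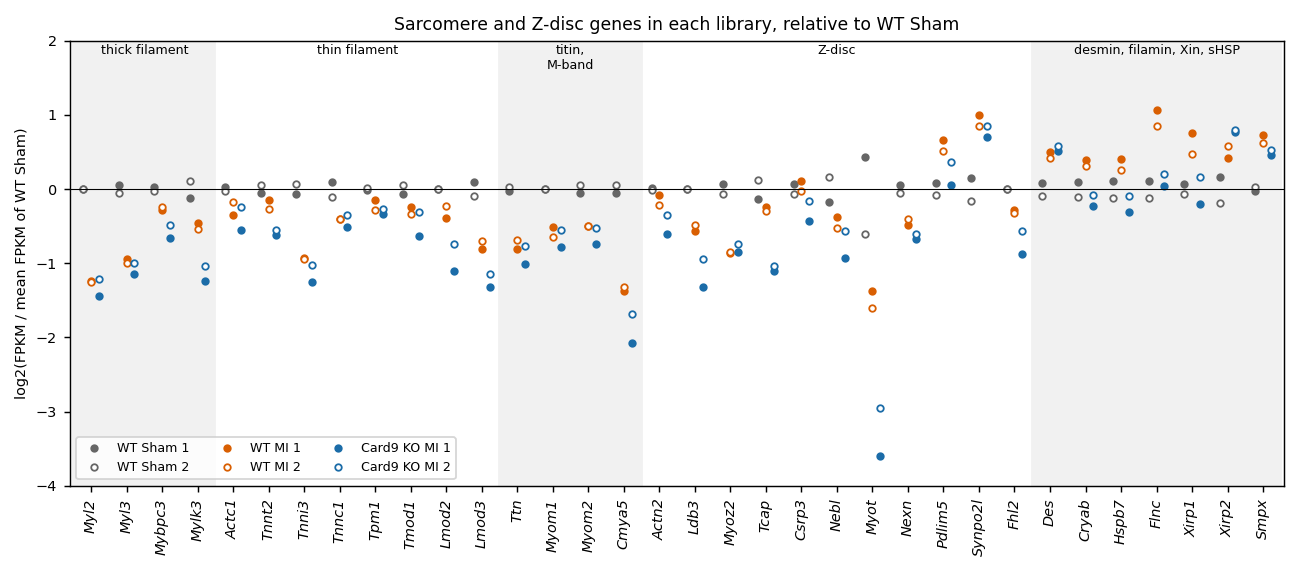
FPKM of 34 sarcomere and Z-disc genes in each library as log2 of the ratio to the WT Sham mean (y axis), by role along the x axis; filled and open points are replicates 1 and 2 of each group, and the low genes Myl4 and Myl7 are left out. Thick filament and M-band genes lie below 0 in both infarct groups, and all 7 genes of the desmin and filamin group lie above 0 in WT MI.

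Among the thick filament genes, the ventricular light chains Myl2 and Myl3 had the largest negative log2 fold changes. Myl2, the regulatory light chain (mm9 chromosome 5, 122550960 to 122563481), stood at 11442 and 11401 FPKM in the WT Sham libraries, 4836 and 4806 in the WT MI libraries, and 4222 and 4939 in the Card9 KO MI libraries. Both WT Sham libraries lay far above every infarct library, and the infarct groups overlapped. Myl2 fell by 1.24 on the log2 scale in WT MI (SE 0.11, limma adjusted p = 0.00019), to 42.2% of the WT Sham mean. The essential light chain gene Myl3 (chromosome 9, 110666150 to 110672308) went from 4660 and 4306 to 2333 and 2246, with a log2 fold change of -0.97 (SE 0.10, limma adjusted p = 0.00037). The ratio of Myl3 to Myl2 was 0.407 and 0.378 in the WT Sham libraries against 0.482 and 0.467 in WT MI. Mylk3, the cardiac kinase that phosphorylates the regulatory light chain, had 171 and 201 in the WT Sham libraries and 135 and 128 in WT MI and was also called lower (-0.49, SE 0.11, limma adjusted p = 0.013). Myosin-binding protein C gene Mybpc3 had 928 and 890 in the WT Sham libraries and 747 and 771 in WT MI, and did not pass the test (log2 fold change -0.26, limma adjusted p = 0.065).

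Of the troponin subunits, Tnni3 and Tnnc1 fell and Tnnt2 did not pass the test. Tnni3, which encodes the inhibitory troponin subunit (chromosome 7, 4469907 to 4475831), was 4710 and 5189 in the WT Sham libraries and 2592 and 2572 in WT MI, and fell by 0.94 on the log2 scale (SE 0.11, limma adjusted p = 0.00065). Tnnt2, the tropomyosin-binding subunit (chromosome 1, 137737452 to 137748837), was 6703 and 7245 in the WT Sham libraries and 6322 and 5798 in WT MI, a log2 fold change of -0.20 that did not pass (limma adjusted p = 0.17). The FPKM ratio of Tnni3 to Tnnt2 was 0.703 and 0.716 in the WT Sham libraries and 0.410 and 0.444 in WT MI, with no overlap. The calcium-binding subunit Tnnc1 had 4212 and 3666 in the WT Sham libraries and 2969 and 2992 in WT MI (log2 fold change -0.40, SE 0.11, limma adjusted p = 0.025), but its log2 fold change was 0.18 under quantile normalization. Cardiac actin, Actc1, was 10230 and 9931 in the WT Sham libraries and 7910 and 8910 in WT MI (-0.26, limma adjusted p = 0.16). Its transcript is nearly identical in the coding part to that of skeletal actin Acta1, and how reads shared by both were counted is not given in the sources used here. Tropomyosin 1, Tpm1, was 7516 and 7601 in the WT Sham libraries and 6833 and 6210 in WT MI (-0.21, limma adjusted p = 0.15). Quantile normalization turned the sign of Actc1 to 0.49, of Tpm1 to 0.33 and of Tnnt2 to 0.27. In contrast, all 8 thin filament genes were called lower with upper-quartile scaling, and 7 of 8 (not Actc1) when libraries were scaled without the 100 most abundant genes. Over all genes tested, these scalings called 2353 of 13102 and 1831 of 13104 lower. Of the genes that cap or lengthen the thin filament, Lmod3 (leiomodin 3) fell from 74.3 and 65.2 to 39.8 and 42.9 (log2 fold change -0.74, limma adjusted p = 0.0020), while Lmod2 and the pointed-end cap gene Tmod1 did not pass, with log2 fold changes of -0.30 and -0.29.

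All 4 genes of titin and the M-band fell. Cmya5, which encodes the titin-binding anchoring protein myospryn (chromosome 13, 93810668 to 93914679), had 142 and 153 FPKM in the WT Sham libraries, 56.8 and 59.1 in the WT MI libraries and 34.9 and 45.8 in the Card9 KO MI libraries. Its 3 groups did not overlap, and the log2 fold change in WT MI was -1.33 (SE 0.13, limma adjusted p = 0.00031). Titin itself, Ttn, was 87.6 and 90.3 in the WT Sham libraries and 50.6 and 55.1 in WT MI (-0.74, SE 0.11, limma adjusted p = 0.0018). The myomesins, which link thick filaments at the M-band, fell together: the log2 fold change was -0.58 for Myom1 and -0.49 for Myom2, and the ratio of Myom2 to Myom1 stayed between 0.489 and 0.565 in all 6 libraries.

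Of the 11 Z-disc genes 4 fell, 2 rose and 5 did not pass the test. Myot, the gene of the actin-bundling protein myotilin, had 92.3 and 44.9 FPKM in the WT Sham libraries, 26.4 and 22.7 in the WT MI libraries, and 5.68 and 8.87 in the Card9 KO MI libraries. Its 3 groups did not overlap, but the WT Sham libraries were far apart. The log2 fold change in WT MI was -1.36 (SE 0.32, limma adjusted p = 0.013), and it was -0.85 without replicate 1 of WT Sham (adjusted p = 0.039) and not called without replicate 2 of WT MI (adjusted p = 0.071). Myoz2, which encodes the calcineurin-binding calsarcin 1 (chromosome 3, 122709124 to 122737908), went from 1110 and 1007 to 585 and 587 (-0.85, SE 0.09, limma adjusted p = 0.00043). Ldb3, the gene of the PDZ and LIM domain protein ZASP, and Nexn, the gene of nexilin, fell with log2 fold changes of -0.53 and -0.44. The genes that rose were Synpo2l, which encodes an α-actinin-binding protein (chromosome 14, 21478168 to 21487576), and the PDZ and LIM domain scaffold gene Pdlim5. Synpo2l was 68.7 and 55.7 in the WT Sham libraries and 125 and 112 in WT MI (log2 fold change 0.93, SE 0.12, limma adjusted p = 0.0011), and Pdlim5 was 416 and 372 against 620 and 561 (0.58, limma adjusted p = 0.0092). The main cross-linker of the Z-disc, α-actinin gene Actn2, did not pass at 914 and 893 in the WT Sham libraries and 855 and 779 in WT MI (-0.15, limma adjusted p = 0.34; 0.0019 under quantile normalization). The titin-capping gene Tcap, the LIM protein genes Csrp3 and Fhl2, and nebulette gene Nebl did not pass either, with log2 fold changes of -0.26, 0.05, -0.30 and -0.42. The value of Csrp3 was below 0 under upper-quartile scaling (-0.20) and without the 100 most abundant genes (-0.11).

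All 7 genes of desmin, filamin C, the Xin proteins and small muscle stress proteins were higher in both WT MI libraries than in both WT Sham libraries, and 6 of them passed the test. The background is 48.3% of all genes tested higher without overlap and 27.7% called higher. Flnc, the actin cross-linker of the Z-disc periphery (chromosome 6, 29383153 to 29411888), had 82.7 and 70.4 FPKM in the WT Sham libraries, 161 and 138 in the WT MI libraries, and 79.0 and 88.6 in the Card9 KO MI libraries. It rose by 0.95 on the log2 scale in WT MI (SE 0.12, limma adjusted p = 0.00095). The ratio of Flnc to Actn2 was 0.0905 and 0.0789 in the WT Sham libraries and 0.188 and 0.177 in WT MI. Smpx, the gene of a small protein of the muscle cell cortex, was 195 and 202 in the WT Sham libraries and 328 and 304 in WT MI (0.67, SE 0.09, limma adjusted p = 0.00098). Xirp1, the gene of Xin (chromosome 9, 119922873 to 119932716), went from 78.8 and 71.8 to 128 and 104 (0.61, SE 0.15, limma adjusted p = 0.015), while its paralog Xirp2 went from 167 and 131 to 200 and 222 (0.51, limma adjusted p = 0.016). The ratio of Xirp1 to Ldb3, a Z-disc gene that fell, was 0.0985 and 0.0893 in the WT Sham libraries against 0.236 and 0.182 in WT MI. This ratio restates the changes of both genes and is not a separate result. Des, which encodes desmin, was 1406 and 1240 in the WT Sham libraries and 1870 and 1768 in WT MI (0.46, limma adjusted p = 0.0094), and the αB-crystallin gene Cryab was 2413 and 2100 against 2966 and 2794 (0.35, limma adjusted p = 0.038). Over 17 refits the log2 fold change of Cryab ran from 0.10 to 0.65, and its call was not kept in all of them. The small heat shock protein gene Hspb7 had 1567 and 1330 against 1920 and 1727 and did not pass (0.33, limma adjusted p = 0.069). With upper-quartile scaling, which moves the median of all genes from 0.19 to -0.03, all 7 log2 fold changes stayed above 0 but only 2 passed, and among all 35 genes 24 were called lower and 3 higher. The split was 22 lower and 4 higher when libraries were scaled without the 100 most abundant genes, and 15 lower and 9 higher under quantile normalization. The calls over all genes tested moved as well. Upper-quartile scaling gave 2353 lower and 2453 higher of 13102. Without the 100 most abundant genes there were 1831 lower and 2867 higher of 13104, and quantile normalization gave 2450 lower and 2291 higher of 13136.

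Calls of 11 genes held in each of 17 refits with other settings or with a library left out. These were Myl2, Myl3, Tnni3, Lmod3, Ttn, Myom1, Cmya5 and Myoz2 among the lower and Flnc, Synpo2l and Smpx among the higher. The number of higher genes was 3 without replicate 2 of WT Sham, 4 without replicate 1 of WT MI and 5 without replicate 2 of WT MI, and the number of lower genes was 9 without replicate 1 of WT MI.

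**Figure D2:**
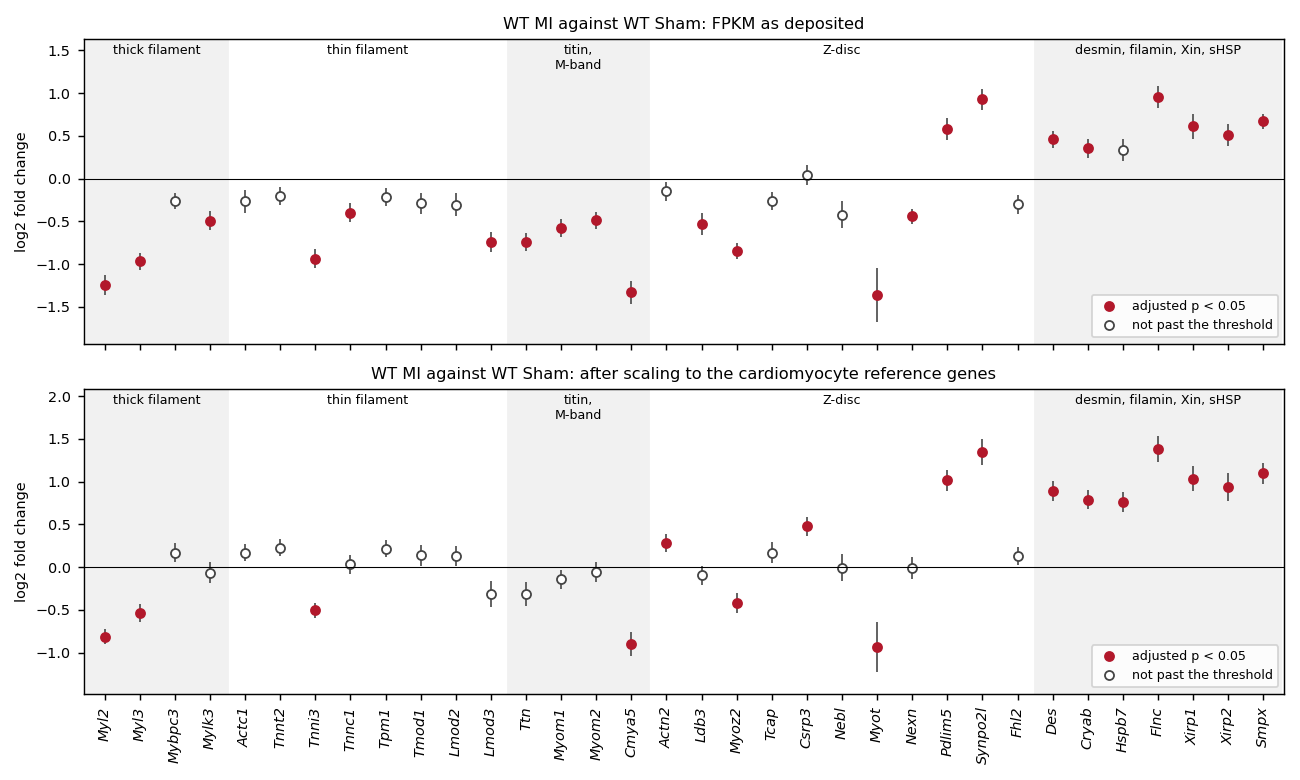
Log2 fold change of each tested gene in WT MI against WT Sham with its standard error (limma), with the deposited FPKM in the upper panel and after scaling to the cardiomyocyte reference genes in the lower panel; red points passed an adjusted p of 0.05. Myl4, a low gene, is left out. Flnc and Synpo2l are among the highest and Myl2, Cmya5 and Myot among the lowest in both panels.

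Among markers of other cell types, those of macrophages, fibroblasts and neutrophils were higher in the infarct tissue. Smooth muscle and endothelial markers had median log2 fold changes of 0.006 and -0.19 in WT MI against WT Sham. Over all genes tested in that comparison, 27.7% were called higher and 9.39% lower. From WT Sham to WT MI the summed FPKM of 10 macrophage markers went from 416 and 358 to 1417 and 1818 and 10 of 10 rose. For 8 fibroblast markers it went from 512 and 489 to 1479 and 2003 (6 of 8 rose), and for the neutrophil markers from 7.64 and 5.40 to 212 and 93.1 (6 of 6 tested rose, Ly6g at 0). The smooth muscle markers, with 180 and 219 against 269 and 258, had 3 of 9 higher and 1 of 9 lower, and the endothelial markers, with 913 and 818 against 777 and 815, had 1 of 8 higher and 1 of 8 lower. The 19 cardiomyocyte reference genes, which hold none of the 36, went from 36057 and 36205 to 18244 and 19431, with 12 lower and 4 higher. The part of these shifts in the sarcomere values was not tested, apart from the scaling that follows.

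**Figure D3:**
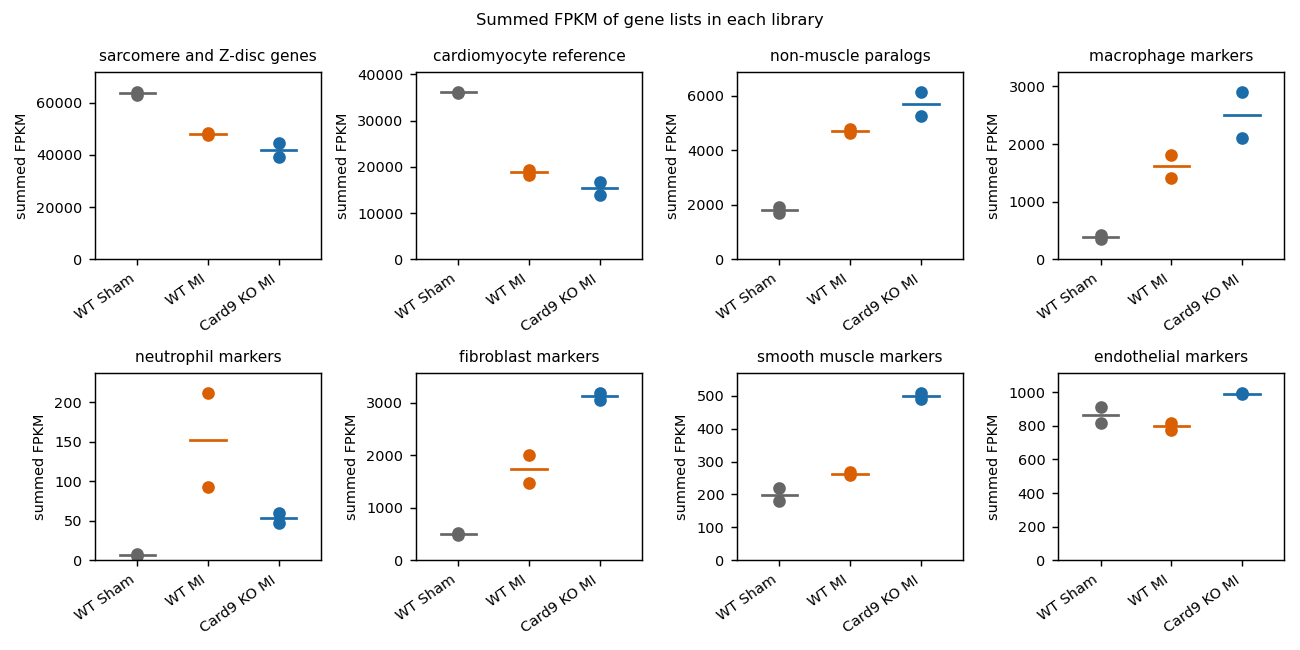
Summed FPKM of gene lists in each library (points) with the group mean (line), each panel on its own axis from 0. The sums of the sarcomere genes and of the cardiomyocyte reference genes are highest in WT Sham, and those of macrophage, fibroblast and non-muscle paralog genes are lowest there.

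To compare the sarcomere genes with other cardiomyocyte transcripts of the same library, each library was scaled so that the mean log2(FPKM + 1) of the 19 reference genes was equal, with factors of 0.730 to 1.44. Relative to that reference 11 of the 35 genes were higher in WT MI than after the sham operation and 6 were lower, where 46.6% and 1.88% of all genes tested were called. The median was 0.14 beside 0.53 for all genes. The higher ones were all 7 of the desmin and filamin group, with Flnc at 1.38, Smpx at 1.10, Xirp1 at 1.04, Xirp2 at 0.94, Des at 0.89, Cryab at 0.79 and Hspb7 at 0.77, and also Synpo2l (1.35), Pdlim5 (1.01), Csrp3 (0.48) and Actn2 (0.28, limma adjusted p = 0.044). The lower ones were Myl2 (-0.81), Myl3 (-0.54), Tnni3 (-0.51), Cmya5 (-0.90), Myoz2 (-0.42) and Myot (-0.94, limma adjusted p = 0.022). The reference list decides part of this. With its 5 energy genes only (Ckm, Ckmt2, Mb, Fabp3 and Cox6a2), all of which fell as deposited, 27 genes were higher and 2 lower, and Myl3, Tnni3 and Myoz2 changed sign to 0.03, 0.06 and 0.14. With that reference 10883 of all 13306 genes tested were higher and 48 lower. Myl2 and Cmya5 stayed lower, and the 7 genes of the desmin and filamin group with Synpo2l and Pdlim5 stayed higher, in each of 16 refits.

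**Figure D4:**
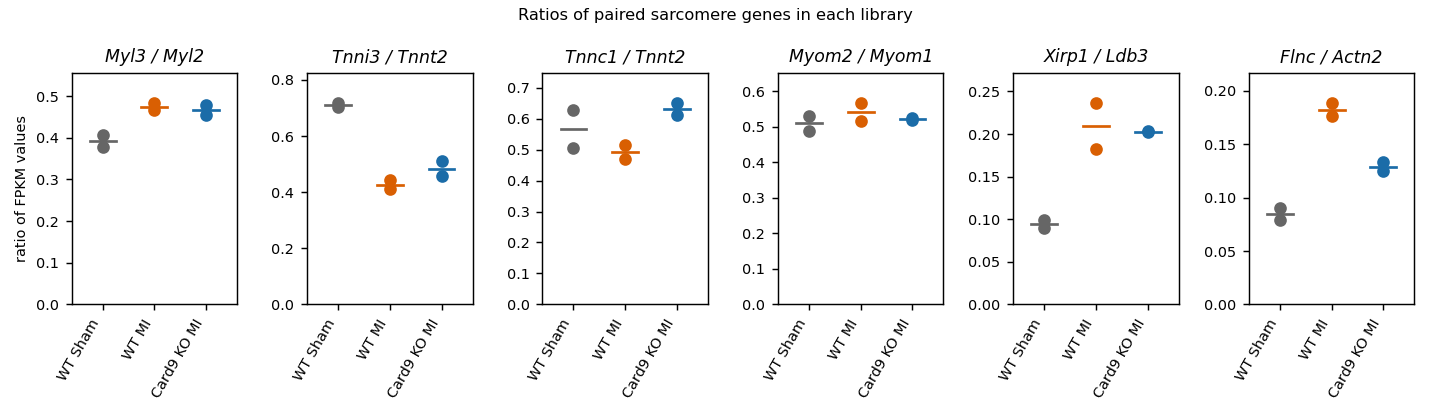
Ratio of the FPKM values of 6 gene pairs in each library (points) with the group mean (line); every axis starts at 0. The ratio of Tnni3 to Tnnt2 is highest in WT Sham, the ratio of Flnc to Actn2 is highest in WT MI, and the ratio of Myom2 to Myom1 overlaps among the groups.

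The libraries labelled Card9 KO MI were set against WT MI to ask how the sarcomere genes differed between the infarct groups. Whether a difference came from the genotype was not tested. Tcap, Flnc and Mylk3 were lower, and no gene was called higher. Of the 35 genes tested 3 were called lower (8.57%) and 0 higher by limma with Benjamini-Hochberg adjustment, against 0.587% and 0.816% of all genes tested. At an unadjusted p below 0.05, 17 were lower and 0 higher, where 8.57% and 11.5% of all genes tested were, and the fold and probability screen of the study gave 1 and 0. Tcap caps the end of titin in the Z-disc (chromosome 11, 98245125 to 98246267) and had 598 and 717 FPKM in the WT Sham libraries, 557 and 536 in the WT MI libraries and 306 and 320 in the Card9 KO MI libraries. The 3 groups did not overlap, and the WT MI libraries lay closer to WT Sham than to Card9 KO MI (log2 fold change -0.80, SE 0.11, limma adjusted p = 0.021). Flnc, described above, went from 161 and 138 in WT MI to 79.0 and 88.6, a range that overlaps that of WT Sham (-0.82, SE 0.12, limma adjusted p = 0.034). Mylk3 (chromosome 8, 87848202 to 87910244) went from 135 and 128 to 78.8 and 91.0 (-0.63, SE 0.11, limma adjusted p = 0.049). None of the 3 calls held throughout: the count of lower genes was 0 without replicate 1 or replicate 2 of WT MI or without replicate 1 of Card9 KO MI, 5 without replicate 2 of Card9 KO MI, and 1 with the replicate number as a block. The log2 fold change over 17 refits ran from -0.85 to -0.77 for Tcap, from -0.94 to -0.71 for Flnc and from -0.73 to -0.53 for Mylk3.

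Across all 35 genes, 31 log2 fold changes were negative. The libraries of both infarct groups did not overlap for 23 lower and 3 higher genes of the 35, with a background of 21.9% and 30.8%, and the median log2 fold change was -0.29 beside 0.04 for all genes. Of 19 cardiomyocyte reference genes 17 were also lower without overlap, and their summed FPKM was 18244 and 19431 in the WT MI libraries and 13942 and 16709 in the Card9 KO MI libraries. Macrophage markers (1417 and 1818 against 2904 and 2113, 0 of 10 called by limma and 6 higher at an unadjusted p below 0.05), fibroblast markers (1479 and 2003 against 3188 and 3059, 3 of 8 higher) and smooth muscle markers (269 and 258 against 509 and 490, 2 of 9 higher) had larger sums in Card9 KO MI. Neutrophil markers were 212 and 93.1 against 59.8 and 46.7 (0 of 6 called by limma, 2 lower at an unadjusted p below 0.05), and endothelial markers 777 and 815 against 987 and 996 (0 of 8 called by limma, 4 higher at an unadjusted p below 0.05). Over all genes tested, limma called 0.816% higher and 0.587% lower, and 11.5% and 8.57% had an unadjusted p below 0.05. The part of these cell type markers in the result was not tested.

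**Figure D5:**
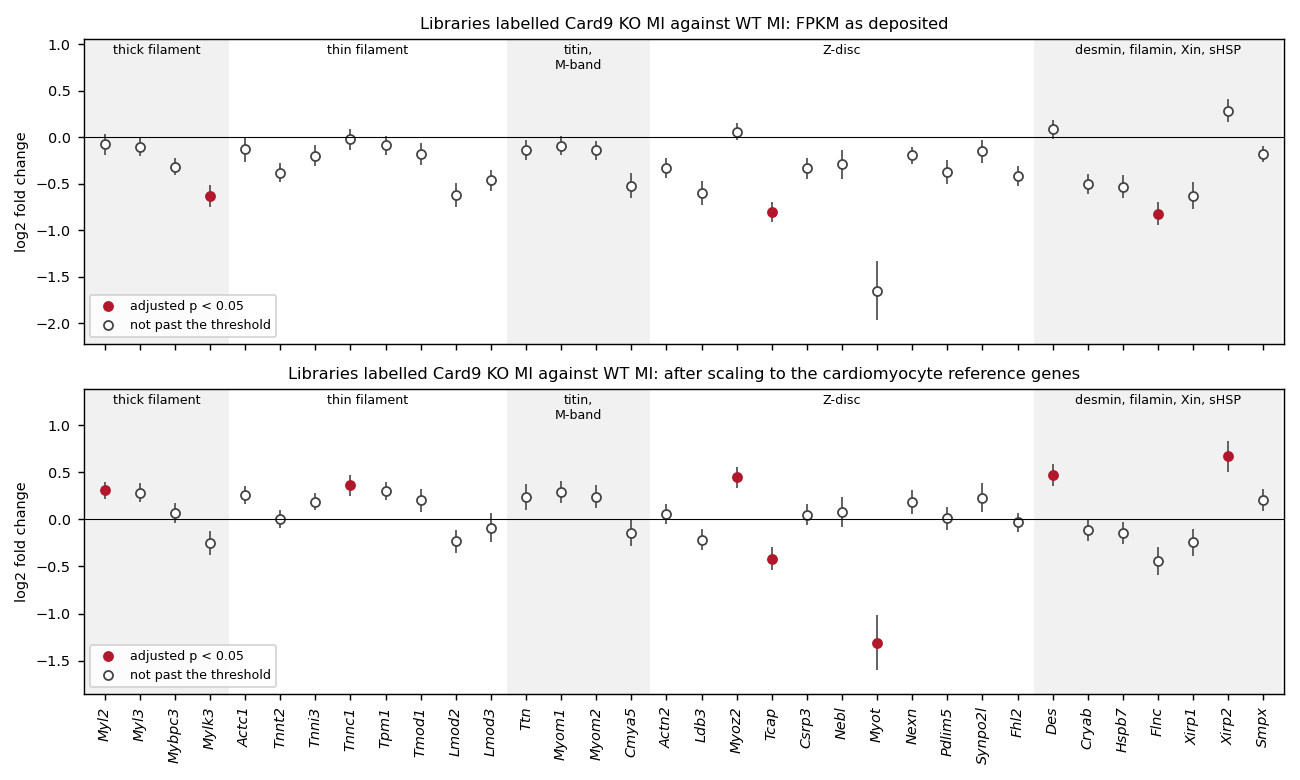
Log2 fold change of each tested gene in libraries labelled Card9 KO MI relative to WT MI with its standard error (limma), with the deposited FPKM in the upper panel and after scaling to the cardiomyocyte reference genes in the lower panel; red points passed an adjusted p of 0.05. Myl4, a low gene, is left out. Most points lie below 0 as deposited and around 0 after scaling, with Myot, Flnc, Tcap and Mylk3 among those below 0 in both.

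Between the infarct groups the most abundant filament genes had small differences. Myl2 had a log2 fold change of -0.08, Myl3 of -0.10, Tpm1 of -0.09, Actc1 of -0.13, Tnni3 of -0.20 and Tnnc1 of -0.02, and none passed. Tnnt2 was 4543 and 4764 in the Card9 KO MI libraries, below both WT MI libraries (-0.38, limma adjusted p = 0.12). The thin filament lengthening genes Lmod2 and Lmod3 had -0.62 and -0.46 (limma adjusted p = 0.066 and 0.094), and Mybpc3 and Tmod1 had -0.32 and -0.18. In the M-band group Cmya5 had -0.52 and the other 3 lay between -0.14 and -0.09. In the Z-disc 10 of 11 genes were lower without overlap, beside 21.9% of all genes tested and 17 of 19 cardiomyocyte reference genes. Among the 10 were Myot (-1.65, SE 0.32, limma adjusted p = 0.057) and Ldb3 (-0.60, limma adjusted p = 0.068), while Myoz2 was 585 and 587 in the WT MI libraries and 588 and 634 in the Card9 KO MI libraries. After scaling to the reference genes, 7 of the 11 were above 0, with a median of 0.05. Within the desmin and filamin group, Flnc, Xirp1 (128 and 104 against 65.4 and 84.6), Hspb7 and Cryab had log2 fold changes between -0.82 and -0.50, whereas Des and Xirp2 were higher without overlap in Card9 KO MI, at 1888 and 1972 and at 254 and 259 (log2 fold changes 0.09 and 0.28, neither called). Smpx had -0.18.

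Between the infarct groups, scaling to the cardiomyocyte reference left 5 genes called higher and 2 called lower in Card9 KO MI, against 15.6% and 0.439% of all genes tested, and the median of the 35 was 0.08 beside 0.39. The higher genes were Xirp2 (log2 fold change 0.67, SE 0.16, limma adjusted p = 0.027), Des (0.47, SE 0.12, limma adjusted p = 0.028), Myoz2 (0.44, SE 0.12, limma adjusted p = 0.033), Tnnc1 (0.36, SE 0.11, limma adjusted p = 0.047) and Myl2 (0.31, SE 0.09, limma adjusted p = 0.039). The lower genes were Myot (-1.31, SE 0.29, limma adjusted p = 0.022) and Tcap (-0.42, SE 0.12, limma adjusted p = 0.041). Flnc (-0.44, SE 0.15, limma adjusted p = 0.061) and Mylk3 (-0.25, SE 0.13, limma adjusted p = 0.16) stayed below 0 but were not called. Of the 35 genes 23 were above 0 and 12 below. The share of higher genes is near the background, and the calls of all 5 were lost with the 5 energy genes as reference and with the median of the reference in place of its mean, where the median of the 35 was -0.061 and -0.021. Over all genes tested, 652 of 13306 and 536 of 13160 were higher with these references, against 2063 of 13203 in the main fit. No gene was called without replicate 1 of WT MI or without replicate 1 of Card9 KO MI. The ratio of Tnnc1 to Tnnt2 was 0.470 and 0.516 in the WT MI libraries and 0.611 and 0.649 in the Card9 KO MI libraries, and in WT Sham it was 0.628 and 0.506, a range that overlapped both. The ratio of Flnc to Actn2 was 0.133 and 0.125 in the Card9 KO MI libraries, between WT Sham and WT MI, and that of Xirp1 to Ldb3 was 0.204 and 0.202, within the range of WT MI.

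Set against WT Sham, Card9 KO MI had 24 of the 35 genes called lower and 4 called higher by limma, where the background is 14.3% and 34.8%. The libraries did not overlap for 25 lower and 5 higher genes (background 24.5% and 51.6%). Relative to the cardiomyocyte reference 17 were higher and 8 lower, beside 73.5% and 1.77% of all genes tested. This comparison shares its WT Sham libraries with that of WT MI. All 8 thin filament genes and all 4 genes of titin and the M-band were called lower, and the higher genes were Synpo2l, Des, Xirp2 and Smpx. Quantile normalization called 4 thin filament genes lower and 3 higher, with the signs of Actc1 (0.49), Tpm1 (0.42), Tnnc1 (0.46) and Tnnt2 (0.087) turned. Over all 13136 genes tested it called 3447 lower and 2836 higher. Upper-quartile scaling ended the calls of Des (limma adjusted p = 0.096) and Smpx (limma adjusted p = 0.14). Side by side, the log2 fold change against WT Sham was -1.24 in WT MI and -1.32 in the Card9 KO MI libraries for Myl2, -0.94 and -1.14 for Tnni3, -1.33 and -1.85 for Cmya5, and -1.36 and -3.01 for Myot. It was -0.26 and -1.06 for Tcap. For the desmin and filamin group the values were 0.95 and 0.13 for Flnc, 0.61 and -0.02 for Xirp1, 0.46 and 0.55 for Des, and 0.51 and 0.79 for Xirp2.

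Other genes of the same apparatus were read from lists chosen for their known roles. Of 15 further sarcomere components tested, 6 fell and 6 rose in WT MI against WT Sham, where 9.39% and 27.7% of all genes tested did. The myosin heavy chain genes Myh7b (24.9 and 24.6 against 7.57 and 11.9 FPKM, log2 fold change -1.30, limma adjusted p = 0.0025) and Myh6 (6475 and 7384 against 3454 and 3611, -0.97) fell most on the log2(FPKM + 1) scale, which understates the change of low genes such as Capn3 (2.18 and 1.76 against 0.62 and 0.48, -0.94). Fhl1, a LIM protein of the titin spring region, rose from 58.8 and 54.7 to 212 and 172 (1.73, limma adjusted p = 5.9e-05), and the titin-binding stress protein gene Ankrd1 from 1188 and 507 to 2411 and 2490 (1.66, limma adjusted p = 0.0064). Of the 15, 0 were called between the infarct groups by limma. At an unadjusted p below 0.05, 3 were higher and 4 lower, where 11.5% and 8.57% of all genes tested were.

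Of 14 genes for sarcomere assembly, chaperones and turnover, 8 fell and 1 rose in WT MI, where 9.39% and 27.7% of all genes tested did. The ubiquitin ligase subunit gene Fbxo32 and the small heat shock protein gene Hspb6 fell most (log2 fold changes -0.73 and -0.70), and Hspb2 rose (0.66). In libraries labelled Card9 KO MI all 14 were lower than in WT MI without overlap, and 2 were called, where 21.9% and 0.587% of all genes tested were. Klhl40, which stabilises thin filament proteins, was 8.84 and 9.50 FPKM in the WT MI libraries and 2.92 and 3.73 in the Card9 KO MI libraries (-1.24, SE 0.16, limma adjusted p = 0.021). Trim54, the gene of a ubiquitin ligase of the sarcomere, was 118 and 113 against 67.5 and 73.3 (-0.71, SE 0.12, limma adjusted p = 0.047).

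Of 13 transcription factor genes known to act on sarcomere promoters, 2 rose in WT MI, Mrtfa (3.66 and 5.39 against 9.66 and 9.90 FPKM, log2 fold change 0.98) and Tbx20 (0.36), and 2 fell, Tbx5 (-0.80) and Hand2 (-0.65). In the same comparison 27.7% of all genes tested rose and 9.39% fell. Between the infarct groups 0 were called by limma, and 0 had an unadjusted p below 0.05. Of 17 non-muscle paralogs of the 36, such as cytoplasmic actins and filamins, 15 rose and 0 fell in WT MI by limma (16 higher and 0 lower at an unadjusted p below 0.05, where 33.9% and 12.8% of all genes tested were), led by the non-muscle α-actinin gene Actn1 (11.6 and 10.4 against 80.8 and 71.4 FPKM, log2 fold change 2.68, limma adjusted p = 1.4e-05) and Vim, the gene of vimentin (141 and 114 against 721 and 724, 2.50). Against WT MI the smooth muscle and non-muscle light chain gene Myl9 was higher in libraries labelled Card9 KO MI, at 94.2 and 91.5 FPKM against 33.9 and 29.8 (1.52, SE 0.15, limma adjusted p = 0.0088).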

How the data were processed

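RNA of heart tissue was analysed from 6 libraries in 3 groups, assigned by their labels. Per the labels and methods, poly(A) RNA was made into TruSeq libraries and run on an Illumina instrument. The authors mapped the filtered reads to mm9 with BWA and Bowtie2. The deposited FPKM values have 2 decimals, carry NCBI gene numbers and cover genes above 0. The annotation, the counter and the strand setting are not given in the sources used here. Since FPKM depends on the total of a library, a change in abundant genes shifts all others. Missing genes were set to 0. Of the 17441 gene numbers 17390 matched a symbol.

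Genes reaching an FPKM of 1 in 2 or more libraries were tested on log2(FPKM + 1) with limma 3.58.1 (lmFit, eBayes with trend) in R 4.3.3, all 3 groups in 1 fit, two-sided, with Benjamini-Hochberg adjustment and a threshold of 0.05. Fold changes on this scale understate those of low genes. For a single gene the design is too small for an exact permutation test to reach 0.05, and none was run. In the fit relative to the reference 13203 genes passed the filter. Estimated fragments gave whole numbers for 69.3% to 74.1% of low values (within 0.15 of a fragment), so counts were not rebuilt. Replicates correlated at 0.980 to 0.981 across genes. Scripts used Python 3.11.15, numpy 2.4.6, pandas 2.3.3 and matplotlib 3.10.9, and the fit was tested on simulated data. Positions are those of mm9 in GENCODE M1, and promoters are those of GRCm38.p6 in RefSeq.

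The 36 genes and the lists were chosen with earlier results of these data known. Statistics were given for genes called between the infarct groups or relative to the reference, the 5 largest changes in each direction in WT MI and the 6 most abundant genes, and for the 2 largest called changes per direction in other lists. For some of these genes the SE or the adjusted p was left out. Myl4, among the 5 largest positive values (0.74, SE 0.47, adjusted p = 0.26), did not pass the test. Alternatives were other pseudocounts, filters, scalings, reference lists, samples in the fit, the replicate block, eBayes without trend, a fold rule, the fold and probability screen of the study and each library left out.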

Additional observations from a re-analysis of the deposited data

How the results depend on the processing

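Between WT MI and WT Sham, where 8 genes were higher and 14 lower, upper-quartile scaling gave 3 and 24, scaling without the 100 most abundant genes gave 4 and 22, adding a 2-fold minimum (the fold rule) gave 0 and 3, and the fold and probability screen of the study gave 0 and 3. Over all genes tested, the 2 scalings gave 2453 higher and 2353 lower of 13102, and 2867 and 1831 of 13104. Leaving out each library in turn gave 3 to 9 higher and 9 to 19 lower. Between Card9 KO MI and WT MI, with 3 lower, no filter gave 0, a mean FPKM of at least 5 gave 7, eBayes without trend 0, the fold rule 0, the screen 1, and leaving out each library 0 to 5. Higher genes were 0 in each of these. Over all genes tested between these groups, 5 of 17441 were lower with no filter, 136 of 8786 with a mean FPKM of at least 5, and 18 of 13120 without trend. Between Card9 KO MI and WT Sham, with 4 higher and 24 lower, upper-quartile scaling gave 2 higher, quantile normalization 7 higher, and both the fold rule and the screen 0 higher and 9 lower. Over all genes tested, upper-quartile scaling called 3029 of 13102 higher and quantile normalization 2836 of 13136. Leaving out each library gave 4 to 6 higher and 20 to 25 lower.

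Relative to the cardiomyocyte reference, the 11 higher and 6 lower genes of WT MI against WT Sham became 27 and 2 with the 5 energy genes as the only reference and 5 and 0 with the fold rule. Leaving out each library gave 9 to 13 and 4 to 7. The 5 higher genes of Card9 KO MI against WT MI became 0 with no filter, with the energy genes, with the median in place of the mean, without trend and with the fold rule, 3 with only the groups compared, 8 with a mean FPKM of at least 5, and 0 to 7 with libraries left out. The 2 lower ones became 0 with no filter, 1 with 0.1 added before the logarithm, with the median, with only the groups compared, without trend and with the fold rule, and 0 to 2 with libraries left out. Against WT Sham, 17 higher and 8 lower became 26 and 2 with the energy genes, 7 higher with the median, 6 and 2 with the fold rule, 5 lower with only the groups compared, 3 lower without trend, and 13 to 17 and 4 to 8 with libraries left out. The median of the 35 genes changed from 0.14 to -0.10, from 0.08 to -0.021 and from 0.23 to -0.11 with the median reference in the same order of comparisons, and from 0.08 to -0.061 with the energy genes. The energy genes turned Myl3 to 0.026, Tnni3 to 0.058 and Myoz2 to 0.14 in WT MI.

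Quantile normalization gives each rank the same value in every library, so that genes at the top ranks are set by rank alone. Under it Actc1 was 0.49, Tnnt2 0.27, Tnnc1 0.18, Tpm1 0.33 and Actn2 0.0019 in WT MI against WT Sham; Actc1 0.49, Tnnt2 0.087, Tnnc1 0.46 and Tpm1 0.42 in Card9 KO MI against WT Sham; and Myl2 0.087, Myl3 0.11, Tnnc1 0.27 and Tpm1 0.087 between the infarct groups. Csrp3 in WT MI was -0.20 with upper-quartile scaling, -0.11 without the 100 most abundant genes, and -0.022 to 0.11 with libraries left out. Between the infarct groups, leaving out each library gave -0.19 to 0.035 for Myl2, -0.28 to 0.023 for Actc1, -0.10 to 0.053 for Tnnc1, -0.21 to 0.022 for Myom1 and -0.076 to 1.00 for Myl4. The cause was not tested.

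Same-numbered libraries did not deviate together across genes (correlations of 0.0024, -0.0083 and 0.020). This check cannot show whether they shared a batch that acted on some genes only. With the replicate block 7 higher and 14 lower genes were called in WT MI against WT Sham, 0 and 1 between the infarct groups, and 4 and 23 in Card9 KO MI against WT Sham. Relative to the reference it gave 10 and 6, 4 and 3, and 16 and 8. Over all 13120 genes tested the block gave 3503 higher and 1148 lower, 45 and 26, and 4419 and 1822 in the same order. Relative to the reference, with 13203 genes tested, it gave 6210 and 258, 2375 and 67, and 9707 and 234.

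The limits are 2 libraries per group, a targeted gene whose FPKM goes against its label, and FPKM without counts. For a transcript of 1 kb, 3 fragments come to 0.699 to 0.995 FPKM, and Myl7 in WT Sham and Myl4 in WT Sham and in replicate 1 of WT MI lay below that level.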
